A study of Mus musculus with 9 samples.

Results

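A family of 10 glutathione transferase genes was followed in 9 RNA-seq libraries of mouse hypothalamus, the brain region that governs feeding, energy use and pituitary hormones. They were Gstp1, Gstp2 and Gstp-ps of the pi class, Gstm1, Gstm5 and Gstm7 of the mu class, Gsta4 (alpha), Gstt1 (theta), Gstk1 (kappa) and Gsto1 (omega). The 10 were taken by gene name from a table of 54532 genes, of which 17546 passed the filter on low counts and were tested. All 10 passed, Gstp2 with 10 or more counts only in the 3 HA libraries and 1 HP library. The filter scales counts to library size, and HA replicate 1, the deepest library, held only 10 counts of Gstp2. Gstp2 therefore passed narrowly, through HA replicates 2 and 3 and HP replicate 2. The genes were chosen by earlier results on the same libraries, in which Gstp1 and Gstp-ps stood out for HP against LP. Values of HP against LP are therefore given for these genes as a description, with no test.

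Every pup was a wild-type male of the outbred ICR stock, sampled on postnatal day 21. HA pups had dams on HFHS, a high-fat high-sucrose feed with 45% of its energy from fat, and were given 4-PBA, a chemical chaperone that also inhibits histone deacetylases. HP pups had dams on the same HFHS feed and were given PBS. LP pups had dams on LFD, a low-fat feed with 10% of its energy from fat, and were given PBS. Injections were daily from postnatal day 4 to day 16. Dams were 5 weeks old when the diet began, were mated after 5 weeks and kept the diet through lactation, so that exposure before birth and through milk cannot be told apart. Litters were set to 10 pups. No group on the low-fat diet received 4-PBA.

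Each group held 3 libraries of 18226924 to 21823961 counts. Averaged over the libraries, 10 of 10 hypothalamic marker genes reached 1 CPM (read count scaled to library size by TMM), and their sum lay between 990.4 and 1308.0 CPM. HA replicate 3 had the highest sum of meningeal fibroblast markers, 1307.9 CPM, followed by LP replicate 3 with 690.4 CPM, and the remaining 7 libraries held 86.2 to 187.8 CPM. Striatal markers summed to 502.7 and 648.9 CPM in LP replicates 1 and 2, against 342.6 to 363.7 CPM elsewhere. The library titles carry codes of unstated meaning. In HA and HP alike, Hg43 marks replicates 1 and 2 while replicate 3 is marked Hg13; in LP, Lg42 marks replicate 1 and Lg63 the others. No code is found under both diets, so effects of code and of diet cannot be told apart.

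Glutathione transferases join glutathione, the main small thiol of the cell, to reactive molecules such as lipid peroxidation products, which are then exported or broken down. Most are soluble enzymes grouped into classes by sequence, and many are induced through the transcription factor NRF2. The pi enzyme GSTP1 is also known for binding the stress kinase JNK and for helping to reduce oxidised peroxiredoxin 6. In brain, pi enzymes are known from glia, oligodendrocytes above all, and mu enzymes from astrocytes.

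The pi class posed a question of shared reads, because Gstp1 has 2 near copies. Gstp1 (ENSMUSG00000060803, chromosome 19, 4035407 to 4037921, minus strand) and Gstp2 (ENSMUSG00000038155, chromosome 19, 4040285 to 4042236, minus strand) are neighbouring protein-coding genes, in GRCm38 coordinates as deposited. Gstp-ps (ENSMUSG00000103653, chromosome 1, 192073820 to 192074450, minus strand) is a processed pseudogene in an intron of Traf5, on the same strand. The sequences below, from the GENCODE M21 transcripts, show the 90 bases with the most differences among the 3, read from the third base of the Gstp1 coding sequence. Capitals mark the 7 positions at which the 3 sequences are not all alike. In Gstp1 and Gstp2 these bases lie in exons 2 and 3 of 7.

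Gstp1: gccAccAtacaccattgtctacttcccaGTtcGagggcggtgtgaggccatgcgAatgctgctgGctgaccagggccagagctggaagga

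Gstp2: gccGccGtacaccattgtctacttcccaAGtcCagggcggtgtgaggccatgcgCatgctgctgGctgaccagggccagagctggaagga

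Gstp-ps: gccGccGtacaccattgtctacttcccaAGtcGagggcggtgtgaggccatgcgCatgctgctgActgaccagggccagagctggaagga

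The stretches lie on the minus strand of GRCm38, at chr19:4037342-4037619 for Gstp1 and chr19:4041636-4041937 for Gstp2, each across an intron, and at chr1:192074361-192074450 for Gstp-ps. Over 631 aligned bases, Gstp2 differed from Gstp1 at 12 (98.10% identity) and Gstp-ps differed from Gstp1 at 15 (97.62%). Gstp-ps differed from Gstp2 at 5 (99.21%). Of the varying bases, 11 were found in Gstp1 alone, 1 in Gstp2 alone and 4 in Gstp-ps alone. The coding sequences of Gstp1 and Gstp2 are 633 bases long, encode 210 residues and differ in 6 of them. Gstp-ps held 0 stop codons before its end when read in the Gstp1 frame.

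The last difference lay at aligned position 328, and the final 303 bases, from exon 5 to the stop codon in exon 7 of Gstp1 and Gstp2, were identical in all 3. The first 90 of them are shown because a read inside this stretch holds no base that could assign it.

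Gstp1, Gstp2 and Gstp-ps: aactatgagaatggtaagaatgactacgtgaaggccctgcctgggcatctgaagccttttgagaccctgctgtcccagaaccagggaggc

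**Figure D1:**
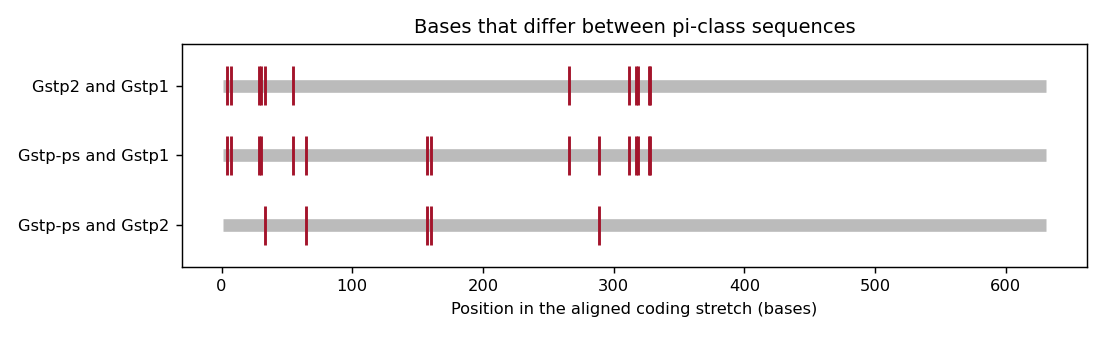
Positions at which pairs of pi-class sequences differ, along the 631 aligned bases of the coding stretch (x axis, bases); red ticks are differing bases and grey bars the aligned sequence. Gstp2 and Gstp1 differ at 12 positions, Gstp-ps and Gstp1 at 15, and Gstp-ps and Gstp2 at 5, none of them beyond position 328.

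Shared sequence was counted as the share of all stretches of a transcript that recur exactly in a transcript of another gene, on either strand. With stretches of 50 bases this was 62.3% for Gstp1, 72.6% for Gstp2 and 71.1% for Gstp-ps. With stretches of 100 bases it was 52.8% for Gstp1, 63.5% for Gstp2 and 51.1% for Gstp-ps. With stretches of 150 bases it was 41.8% for Gstp1, 49.4% for Gstp2 and 40% for Gstp-ps. The share cannot rise with length, because a longer shared stretch contains shorter ones. Gstp2 shared the most at each length. Outside the pi class, Gstm1 shared 23.1% at 50 bases and 0% at 150 bases, with Gstm3 its nearest relative. Gstm5 shared 14.4% at 50 bases and 3.64% at 150 bases, although its nearest match, Gm18553, was only 74.0% identical over 646 aligned bases. The antisense gene 4933431E20Rik overlaps exons of Gstm5, and its part in this sharing was not tested. The other 5 genes shared 0% at 50 bases. Read length, and how reads that fit several places were counted, are not given in the sources used here.

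On the scale of the deposited FPKM (read counts scaled by gene length and library size, so that levels of different genes can be set side by side), Gstp1 stood highest at 165.1 ± 38.76 FPKM (SD, n = 9 libraries). Gstm5, a mu enzyme known from brain and testis, followed at 90.89 ± 4.507 FPKM, and Gstm1, a mu enzyme abundant in liver and astrocytes, at 65.06 ± 5.389 FPKM. The ranges of these 3 genes did not overlap with each other or with any gene below them. Gsta4, an alpha enzyme that acts on the lipid peroxidation product 4-hydroxynonenal, averaged 28.51 ± 2.466 FPKM. Gstp-ps averaged 20.64 ± 5.639 FPKM, Gstm7 18.71 ± 1.562 FPKM and Gsto1 16.7 ± 1.929 FPKM. Each gene from Gsta4 to Gsto1 overlapped in range with its neighbour in this order. Gstt1, a theta enzyme acting on small halogenated compounds, averaged 8.141 ± 1.99 FPKM, and Gstk1, a kappa enzyme of mitochondria and peroxisomes, 5.65 ± 0.507 FPKM. The ranges of these genes overlapped, although Gstt1 was above Gstk1 in each of the 9 libraries. Gstp2 was lowest at 0.9526 ± 1.07 FPKM, apart from all others.

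**Figure D2:**
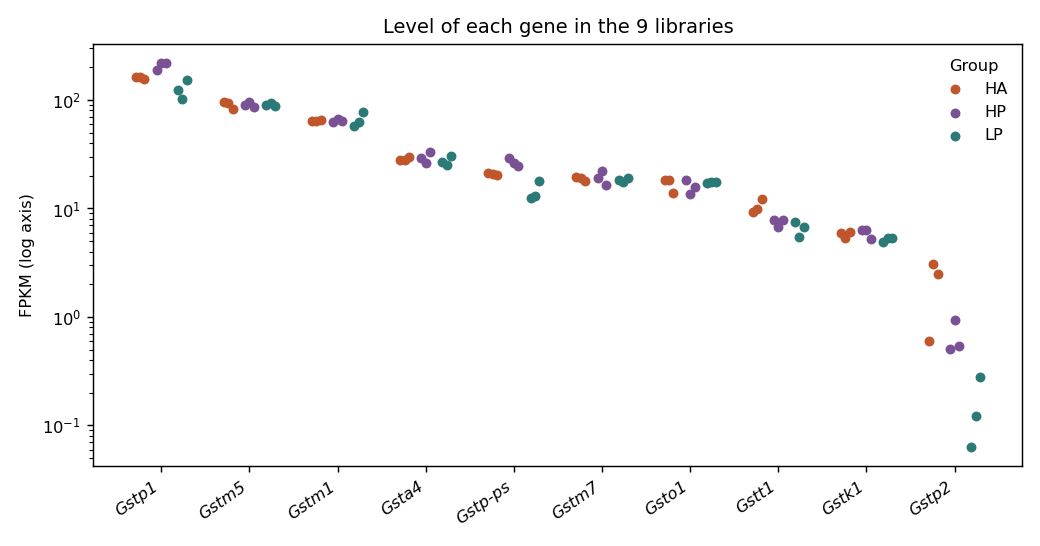
Deposited FPKM of each gene (y axis, log scale) in the 9 libraries, genes ordered by their mean; points are libraries, coloured by HA, HP and LP. Gstp1 lies between 103 and 218.3 FPKM, above every other gene, and Gstp2 between 0.06306 and 3.052 FPKM, below every other gene.

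The genes also varied to different degrees. Over the 9 libraries the coefficient of variation of CPM was 112.3% for Gstp2, 27.31% for Gstp-ps, 24.51% for Gstt1 and 23.45% for Gstp1. For the other 6 genes it lay between 4.886% for Gstm5 and 11.5% for Gsto1. This measure includes the differences between groups, and Gstp1 and Gstp-ps were chosen for the difference of HP against LP. Gstp2 held 1 to 44 counts per library, where counting alone adds much spread. The order of the genes is therefore a description. The level of a transcript in bulk tissue reflects both how many cells carry it and how much each carries, and fewer cells of a type and less RNA per cell cannot be told apart.

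Gstp1 had 122.5, 123.6 and 119.9 CPM in HA libraries, 143, 165.6 and 165.8 CPM in HP libraries, and 93.32, 78.41 and 116.4 CPM in LP libraries. The 3 groups did not overlap: HP lay highest, HA between, and LP lowest and most spread. The HA libraries were the closest to each other. LP replicates 1 and 2, the lowest in Gstp1 and in Gstp-ps, were also the libraries highest in striatal markers, at 502.7 and 648.9 CPM, while LP replicate 3 stood at 363.7 CPM, and the part of striatal tissue in these values was not tested.

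Gstp1 averaged 122 ± 1.881 CPM in HA and 158.1 ± 13.12 CPM in HP (SD, n = 3 each). The log2 fold change of HA against HP was -0.37 (SE 0.12), and it did not pass, with an adjusted p of 0.84 in edgeR's quasi-likelihood test. In LP Gstp1 averaged 96.06 ± 19.16 CPM, and the log2 fold change of HA against LP was 0.35 (SE 0.12), with an adjusted p of 0.737 (edgeR). LP replicate 2 carried part of this value, since without it the log2 fold change was 0.22, while without LP replicate 3 it was 0.51. HP against LP, the comparison behind the choice of genes, gave a log2 fold change of 0.72 (SE 0.12). Both comparisons of HA use libraries of that contrast, so the 3 fold changes are not independent.

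Gstp-ps, which encodes no known protein, had 13.44, 12.99 and 12.78 CPM in HA libraries, 18.42, 16.69 and 15.74 CPM in HP libraries, and 7.841, 8.338 and 11.34 CPM in LP libraries. Its groups stood in the same order as those of Gstp1 and did not overlap. The log2 fold change was -0.37 (SE 0.14, adjusted p = 0.84, edgeR) for HA against HP and 0.51 (SE 0.14, adjusted p = 0.645) for HA against LP. For HP against LP it was 0.89 (SE 0.14).

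Gstp2 was counted so rarely that its raw counts are given. They were 10, 44 and 36 in HA libraries, 7, 14 and 8 in HP libraries, and 1, 2 and 4 in LP libraries, which sums to 90, 29 and 7 counts. LP replicates 1 and 2 lay under 3 counts, the limit that a count of 0 allows, which comes to 0.146 and 0.14 CPM there. Every LP library was below every HP and HA library, and HA replicate 1 lay within the range of HP. Gstp2 averaged 1.577 ± 0.9911 CPM in HA and 0.5112 ± 0.1863 CPM in HP, or 1.59 on the log2 scale (SE 0.58, adjusted p = 0.84, edgeR). In LP it averaged 0.1195 ± 0.08589 CPM, and HA against LP gave 3.67 (SE 0.72), with an adjusted p of 0.434 (edgeR). Over its alternatives this adjusted p lay between 0.00502, with no filter on low counts, and 0.856. The estimate for HP against LP was 2.08 (SE 0.80). Single LP libraries moved both estimates: without LP replicate 3 they were 4.33 for HA against LP and 2.73 for HP against LP, and without LP replicate 1 they were 3.31 and 1.71 in the same order. Since Gstp2 passed the filter on counts through HA and HP alone, and through HA above all, none of its tests is independent of the filter. Nothing is read from its tests of HA against HP or of HA against LP.

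**Figure D3:**
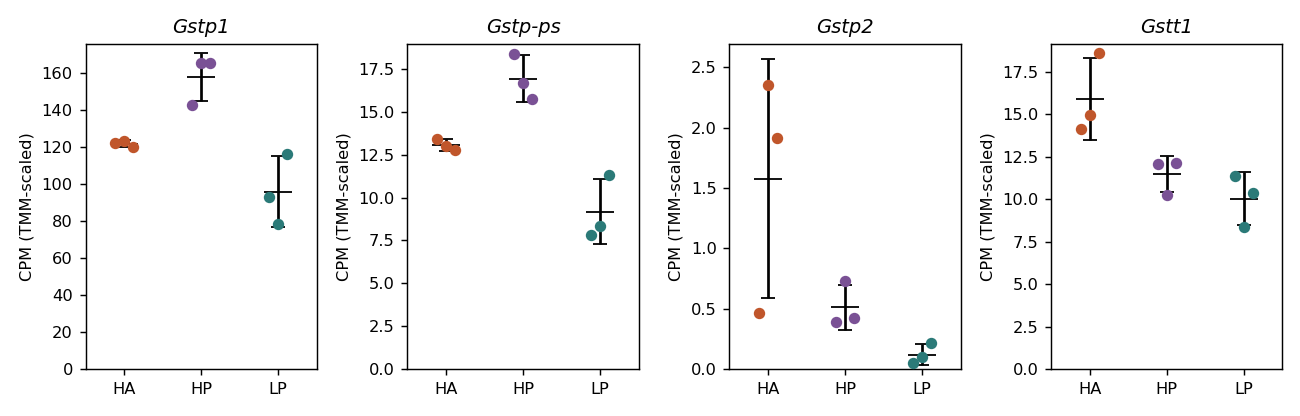
CPM of Gstp1, Gstp-ps, Gstp2 and Gstt1 (y axes, from 0) in HA, HP and LP; points are libraries, wide dashes are means and error bars SD (n = 3 each). Gstp1 and Gstp-ps are highest in HP, at 143 to 165.8 and 15.74 to 18.42 CPM, whereas Gstp2 and Gstt1 have their highest library in HA, at 2.353 and 18.64 CPM.

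The counts of the near copies were then set against those of Gstp1 within each library. Gstp-ps had 10.98%, 10.51% and 10.66% as many counts as Gstp1 in HA libraries, 12.88%, 10.08% and 9.492% in HP libraries, and 8.403%, 10.63% and 9.741% in LP libraries. The ratio of Gstp-ps to Gstp1 overlapped between all 3 groups and lay between 8.403% in LP replicate 1 and 12.88% in HP replicate 1. Across the 9 libraries the log2 CPM values of Gstp-ps and Gstp1 had a Pearson r of 0.921 and a Spearman rho of 0.900, and r was 0.930 without LP replicate 2 and HP replicate 3, the libraries farthest from the Gstp1 median. These points share sequence between the genes as well as library and group. Both genes were also chosen for HP against LP, so a like ratio and a high r follow in part from the choice. Traf5, the gene around Gstp-ps, averaged 18.4 counts per library against 253.0 for Gstp-ps. How many of the Gstp-ps counts came from Gstp1 transcripts was not tested.

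Gstp2 behaved otherwise. It had 0.3759%, 1.903% and 1.599% as many counts as Gstp1 in HA libraries, 0.2725%, 0.4382% and 0.2523% in HP libraries, and 0.05219%, 0.1208% and 0.1847% in LP libraries. This ratio varied far more than that of Gstp-ps, and it was lower in each LP library than in any HP or HA library. It rests on 1 to 44 counts of Gstp2, against 161 to 331 of Gstp-ps, and counts this low vary more by counting alone. Gstp2 also passed the filter through HA and HP, so its low ratio in LP is a description. The Pearson r of Gstp2 with Gstp1 was 0.492 (n = 9 libraries).

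**Figure D4:**
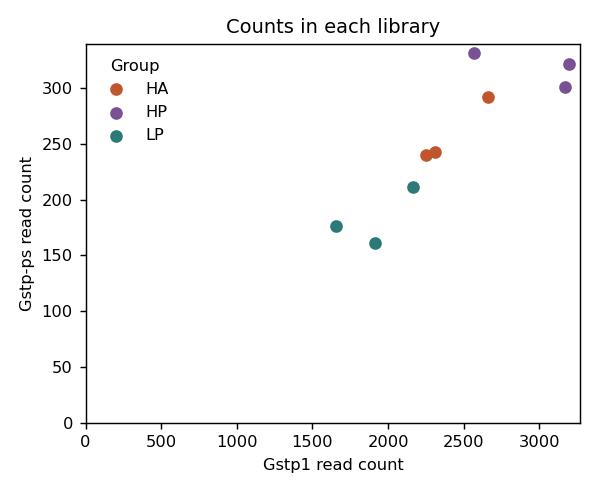
Read counts of Gstp-ps (y axis) against those of Gstp1 (x axis), both from 0; each point is 1 of 9 libraries, coloured by HA, HP and LP. Gstp-ps has between 8.403% and 12.88% as many counts as Gstp1, and LP libraries lie lowest on both axes.

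Summing the 3 genes removes the effect of reads split among them. It does not restore shared reads that were left out, nor correct reads counted at more than 1 gene. The sum averaged 136.7 ± 2.175 CPM in HA, 175.6 ± 11.97 CPM in HP and 105.3 ± 20.89 CPM in LP (SD, n = 3 each). Gstp1 supplied 88.37% to 92.2% of it. The log2 fold change of the sum was -0.36 (SE 0.11, adjusted p = 0.84, edgeR) for HA against HP and 0.38 (SE 0.11, adjusted p = 0.666) for HA against LP. Without LP replicate 3, the LP library with the highest sum at 128 CPM, the value for HA against LP was 0.54 with an adjusted p of 0.046 (edgeR). The low LP values entered the choice of genes, so this is no independent call. For HP against LP the sum gave 0.74 (SE 0.11). The pi-class values were thus close to those of Gstp1 alone.

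Gstt1 (ENSMUSG00000001663, chromosome 10, 75783813 to 75798584) was the member outside the pi class that was set apart in HA. It had 14.13, 14.97 and 18.64 CPM in HA libraries, 12.08, 10.26 and 12.13 CPM in HP libraries, and 11.4, 8.338 and 10.38 CPM in LP libraries. Every HA library was above every HP and LP library, and HP and LP overlapped. Gstt1 averaged 15.92 ± 2.397 CPM in HA and 11.49 ± 1.063 CPM in HP, or 0.47 on the log2 scale (SE 0.15, adjusted p = 0.84, edgeR). In LP it averaged 10.04 ± 1.557 CPM, and HA against LP gave 0.66 (SE 0.15, adjusted p = 0.645, edgeR). DESeq2 gave the same difference an adjusted p of 0.0304, and over all alternatives the adjusted p lay between 0.0304 and 0.91. For HP against LP the estimate was 0.20 (SE 0.15).

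The mu, alpha, kappa and omega genes overlapped between groups in all 3 comparisons. Gstm5 (ENSMUSG00000004032, chromosome 3, 107895821 to 107898686) had 123.3, 119 and 107.2 CPM in HA libraries, 115.5, 123.2 and 109.9 CPM in HP libraries, and 116.3, 121.1 and 113.3 CPM in LP libraries. Its exons overlap an antisense gene, 4933431E20Rik, with a mean of 1496.3 counts against 2280.1 for Gstm5, and without strand their reads cannot be told apart. Gstm1 (ENSMUSG00000058135, chromosome 3, 108012255 to 108017973) had 94.75, 94.86 and 96.03 CPM in HA libraries, 93.23, 98.07 and 94.28 CPM in HP libraries, and 85.77, 93.1 and 115.2 CPM in LP libraries. LP replicate 3 held the highest Gstm1 value, and the other 8 libraries lay between 85.77 and 98.07 CPM.

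Gstm7 (ENSMUSG00000004035, chromosome 3, 107926334 to 107931817), another mu enzyme, lay between 26.62 and 35.25 CPM over the 9 libraries. Gsta4 (ENSMUSG00000032348, chromosome 9, 78182774 to 78209349) lay between 32.17 and 42.36 CPM. Gstk1 (ENSMUSG00000029864, chromosome 6, 42245935 to 42250447) lay between 7.159 and 9.295 CPM. Both extremes of Gstm7 and the highest value of Gsta4 fell in HP. Gsto1 (ENSMUSG00000025068, chromosome 19, 47854970 to 47864790), an omega enzyme that reduces dehydroascorbate and methylated arsenic, lay between 26.64 and 36.46 CPM. It was lowest in HP replicate 2 and next lowest in HA replicate 3, at 27.27 CPM. For these 6 genes the log2 fold changes lay between -0.06 (Gsta4) and 0.08 (Gsto1) in HA against HP and between -0.06 (Gsto1) and 0.15 (Gstk1) in HA against LP. Their adjusted p-values lay between 0.8466 and 0.9996 in both comparisons (edgeR), and in HP against LP their estimates lay between -0.14 (Gsto1) and 0.20 (Gstk1).

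**Figure D5:**
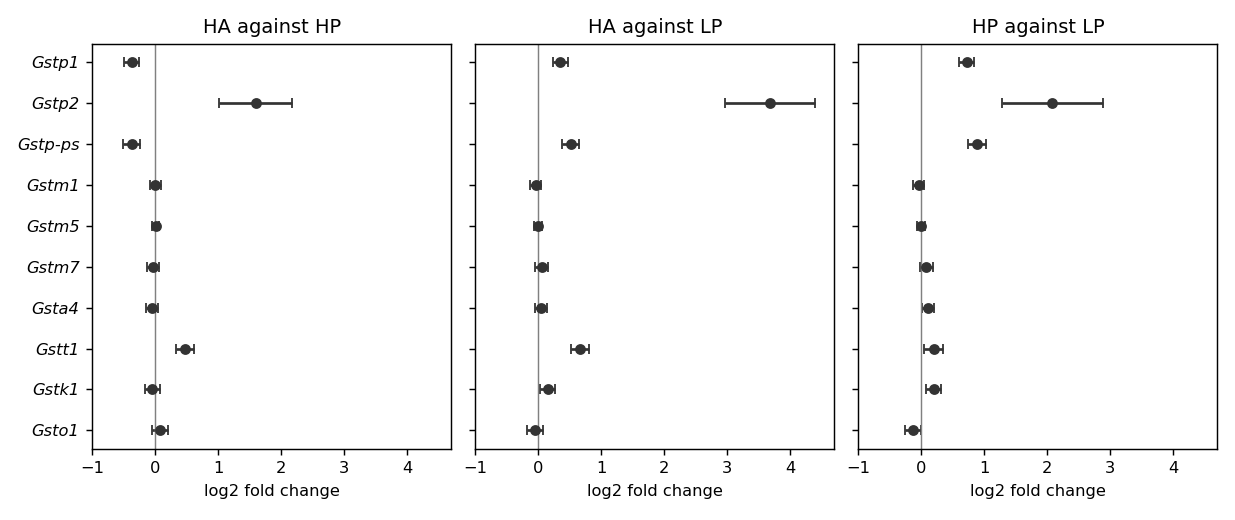
Log2 fold change of each gene (x axis; points are edgeR estimates, bars are 1 SE) for HA against HP, HA against LP and HP against LP. Gstp1 and Gstp-ps lie near -0.37 in HA against HP, Gstp2 reaches 3.67 in HA against LP, and the mu, alpha, kappa and omega genes lie between -0.14 and 0.20 in every panel.

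No member passed an adjusted p of 0.05 in HA against HP or in HA against LP. Over all genes tested, 0.0114% passed in HA against HP, 0.00% in HA against LP and 0.0114% in HP against LP, or 2, 0 and 2 genes. At an unadjusted p under 0.05 the counts were 951, 1142 and 1073 genes, and DESeq2 called 7, 25 and 32. Groups did not overlap for 3 of 10 members in HA against HP, Gstt1 above and Gstp1 and Gstp-ps below, where 11.8% of all genes were apart. In HA against LP the number was 4 of 10, Gstp1, Gstp2, Gstp-ps and Gstt1, all above, against 10.9% of all genes. In HP against LP it was 3 of 10, the pi-class genes, against 11.8% of all genes. HP against LP entered the choice of genes, and so did the LP and HP values used in the comparisons with HA. Gstp2, moreover, passed the filter through HA and HP, and the pi-class genes share sequence. These counts are therefore a description and not a result about the members.

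The rest of glutathione metabolism was described from lists of genes, chosen with earlier results of these libraries known. Of 17 other glutathione transferases tested, 0 passed in any comparison (edgeR), and their median log2 fold change was 0.010 in HA against HP, -0.020 in HA against LP and -0.098 in HP against LP. The median over all genes lay between -0.0024 and 0.0057 in these comparisons. By p, the first members were Gstt3, Gstm6, Mgst1 and Gstcd. Gstt3, a theta enzyme like Gstt1, had 2.901, 4.278 and 4.527 CPM in HA libraries, 2.449, 1.97 and 2.876 CPM in HP libraries, and 3.312, 2.179 and 3.118 CPM in LP libraries. HA lay above HP, by 0.68 on the log2 scale (SE 0.24, adjusted p = 0.84, edgeR), and overlapped LP. Gstm6 gave 0.40 (SE 0.15) in HA against HP, while Mgst1, a membrane-bound transferase, and Gstcd, a little-studied family member, gave 0.36 (SE 0.16) and 0.24 (SE 0.12) in HP against LP. Gstm2 was named after its values were seen: HA replicate 3 held 10.07 CPM and LP replicate 3 held 6.666 CPM, and the other 7 libraries held 0.4604 to 2.004 CPM. These are the libraries with the highest meningeal markers, and the part of such tissue in this value was not tested.

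Genes that make and break down glutathione numbered 20 tested, and 0 passed. Gclc and Gclm encode the catalytic and modifier subunits of glutamate-cysteine ligase, the first step of synthesis. Gclm averaged 83.19 ± 1.489 CPM in HA, 87.93 ± 1.932 CPM in HP and 83.92 ± 1.415 CPM in LP, and Gclc 60.76 ± 2.269, 63.79 ± 0.763 and 63.49 ± 5.621 CPM in HA, HP and LP. Gss, glutathione synthetase, averaged 19.85 ± 0.3377 CPM in HA, 21.67 ± 0.9913 CPM in HP and 19.63 ± 1.375 CPM in LP. Slc1a1, a transporter that brings in cysteine, showed -0.17 (SE 0.07) as its log2 fold change in HA against HP, and Cth, which makes cysteine from cystathionine, -0.35 (SE 0.16) in HP against LP. The list's median log2 fold change was -0.008 in HA against HP, -0.034 in HA against LP and -0.021 in HP against LP.

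Among 21 tested genes of glutathione reduction and peroxidases, 0 passed, with medians of 0.001, 0.006 and -0.008 for HA against HP, HA against LP and HP against LP. Gpx8, a peroxidase of the endoplasmic reticulum, was highest in HA replicate 3 at 18.54 CPM and next in LP replicate 3 at 11.18 CPM, the other 7 libraries lying at 5.788 to 7.597 CPM, again in the libraries high in meningeal markers. Glrx (glutaredoxin), Txnrd1 (thioredoxin reductase) and Idh2 (mitochondrial NADPH supply) had log2 fold changes of at most 0.13 in size in every comparison.

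Of 14 tested genes that handle glutathione conjugates or belong to the glyoxalase pathway, 0 passed, with medians of 0.041, 0.029 and -0.010 in the same order. Glo1, which clears methylglyoxal with glutathione, had 312.7, 265.3 and 218.1 CPM in HA libraries, 184.7, 191.3 and 213.6 CPM in HP libraries, and 81.72, 203.8 and 203 CPM in LP libraries. HA lay above HP and LP with no overlap, and LP replicate 1 stood far below the others. On the log2 scale Glo1 gave 0.43 (SE 0.28, adjusted p = 0.84, edgeR) in HA against HP and 0.71 (SE 0.28, adjusted p = 0.756) in HA against LP. Abcc3, an exporter of conjugates, and Acy3, an aminoacylase of mercapturate metabolism, were low, at 1.28 to 2.606 and 1.348 to 4.074 CPM, and gave 0.62 (SE 0.22) and 0.78 (SE 0.31) in HA against HP. In HP against LP they gave -0.58 (SE 0.22) and -0.75 (SE 0.31), and in HA against LP 0.04 (SE 0.21) and 0.03 (SE 0.30), and HP had the lowest mean of both.

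Regulation and targets of NRF2 numbered 29 tested genes, and 0 passed, with medians of 0.009, 0.011 and 0.007 for HA against HP, HA against LP and HP against LP. Nfe2l2, which encodes NRF2, averaged 17.53 ± 3.775 CPM in HA, 17.67 ± 0.472 CPM in HP and 17.82 ± 3.346 CPM in LP. The targets Nqo1 and Hmox1 averaged 5.957 ± 1.656 and 5.637 ± 0.7198 CPM in HA, 4.477 ± 0.7524 and 5.608 ± 0.5811 CPM in HP, and 5.647 ± 0.8375 and 5.743 ± 0.8478 CPM in LP. Means of Nfe2l2 and Hmox1 thus lay within 1 SD of each other in all groups. For Srxn1, sulfiredoxin, the log2 fold change was -0.21 (SE 0.07, adjusted p = 0.84, edgeR) in HA against HP, and for Bach1, a repressor at NRF2 sites, it was 0.18 (SE 0.07, adjusted p = 0.756) in HA against LP.

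Of 8 genes for reported protein partners of GSTP, 0 passed, with medians of -0.015, 0.033 and -0.005 in the same order. Jun, the AP-1 subunit phosphorylated by JNK, had 69.11, 64.65 and 70.15 CPM in HA libraries, 68.91, 69.61 and 61.02 CPM in HP libraries, and 55.03, 53.63 and 60.8 CPM in LP libraries. Both HA and HP lay above LP, and HA and HP overlapped. The log2 fold change of Jun was 0.27 (SE 0.07, adjusted p = 0.645, edgeR) in HA against LP and 0.24 (SE 0.07, adjusted p = 0.69) in HP against LP. The kinase genes Mapk8 and Mapk9 (JNK1 and JNK2) gave -0.15 (SE 0.06) and -0.10 (SE 0.06) in HA against LP, and Prdx6 (peroxiredoxin 6) gave 0.08 (SE 0.07).

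Markers of the cells known for pi and mu enzymes were set beside these values. Myelin markers of oligodendrocytes summed to 20933.2, 15115.8 and 12378.2 CPM in HA libraries, 20856.2, 21785.9 and 18161.3 CPM in HP libraries, and 14025.9, 21785.4 and 15910.2 CPM in LP libraries. Averaged over the libraries, all 14 were at 1 CPM or more. HP, the group highest in Gstp1, also had the highest median myelin sum, 20856.2 CPM, against 15115.8 CPM in HA and 15910.2 CPM in LP. The groups overlapped in this sum, and LP replicate 2, the lowest in Gstp1, was at 21785.4 CPM. Astrocyte markers summed to 5234.0 to 5586.7 CPM in HA, 5139.9 to 5818.4 CPM in HP and 5219.0 to 5867.6 CPM in LP, and overlapped between all groups. Oligodendrocyte precursor markers summed to 940.3 to 1101.2 CPM in HA, 1061.1 to 1157.4 CPM in HP and 957.9 to 1073.3 CPM in LP. Striatal markers summed to 342.6 to 354.6 CPM in HA, 356.2 to 361.7 CPM in HP and 363.7 to 648.9 CPM in LP. LP replicate 3, at 363.7 CPM, lay close to HP, and only LP replicates 1 and 2 stood apart. The sums of the remaining lists, in HA, HP and LP, were 4786.4 to 5240.3, 5023.1 to 5353.9 and 5123.9 to 5463.7 CPM for neurons and 193.8 to 353.6, 195.7 to 246.8 and 203.1 to 229.4 CPM for tanycytes and ependyma. They were 64.33 to 80.32, 64.68 to 81.65 and 72.53 to 78.27 CPM for choroid plexus and 417.8 to 763.7, 438.6 to 459.3 and 365.2 to 507.1 CPM for endothelial and mural cells. For microglia and blood they were 212.2 to 357.8, 206.4 to 260.5 and 204 to 282.6 CPM, and for pituitary 87.48 to 137.8, 68.91 to 108.9 and 67.89 to 73.01 CPM. Pomc, at 48.28 to 87.51 CPM, made up most of each pituitary sum, while Gh was highest in HA replicate 3 at 16.19 CPM. The part of cell makeup in the values of the transferases was not tested.

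Among 11585 protein-coding genes with a mean of at least 5 CPM, the 6 whose log2 CPM ran most like that of Gstp1 over the 9 libraries, members aside, were Pqlc2, Vars2, Lman2l, Hexdc, Herpud2 and Ankrd34b, with Pearson r between 0.885 and 0.900. The r of Gstp-ps was 0.921, but Gstp-ps and Gstp1 were chosen together from these libraries, so this value restates the choice. Pqlc2, a lysosomal exporter of basic amino acids, averaged 10.87 ± 1.086 CPM in HA, 12.62 ± 0.532 CPM in HP and 9.47 ± 0.7047 CPM in LP. The genes that ran most opposite were Auts2, Chrm1, Ppp1r2 and Rnaseh2b, with r between -0.947 and -0.925. Chrm1, the muscarinic M1 receptor, averaged 15.99 ± 1.126 CPM in HA, 12.39 ± 1.085 CPM in HP and 17.85 ± 2.175 CPM in LP. By Spearman rho 2 of the 6 highest genes were also among the 6 highest, and without LP replicate 2 and HP replicate 3 the number was 0, so the list rests on the measure and on those libraries. The points share library and group, and values this high are the extremes of 11585 genes. The r of the other members with Gstp1 lay between -0.408 (Gsto1) and 0.564 (Gsta4). Without LP replicate 2 and HP replicate 3 it lay between -0.369 (Gsto1) and 0.860 (Gstk1), with -0.083 for Gsta4 and 0.789 for Gstm7. These values, too, rest on those libraries.

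The promoters of Gstp1 and Gstp2 are shown because the 2 genes neighbour each other and are near copies. They run from 250 bases before to 50 bases after the start, come from RefSeq on GRCm38.p6, and lie on the minus strand at chr19:4037863-4038162 for Gstp1 and chr19:4042172-4042471 for Gstp2. Capitals mark the AP-1 site TGAGTCA and the TATA box TATAA, searched on both strands, so that the TATA matches on the plus and minus strand overlap as TTATAA.

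Gstp1 promoter: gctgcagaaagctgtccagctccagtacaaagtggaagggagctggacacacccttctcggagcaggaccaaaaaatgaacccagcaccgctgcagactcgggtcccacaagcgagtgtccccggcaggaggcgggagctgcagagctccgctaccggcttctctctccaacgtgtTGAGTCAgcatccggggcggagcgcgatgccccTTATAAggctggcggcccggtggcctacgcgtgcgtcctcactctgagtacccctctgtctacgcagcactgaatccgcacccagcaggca

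Gstp2 promoter: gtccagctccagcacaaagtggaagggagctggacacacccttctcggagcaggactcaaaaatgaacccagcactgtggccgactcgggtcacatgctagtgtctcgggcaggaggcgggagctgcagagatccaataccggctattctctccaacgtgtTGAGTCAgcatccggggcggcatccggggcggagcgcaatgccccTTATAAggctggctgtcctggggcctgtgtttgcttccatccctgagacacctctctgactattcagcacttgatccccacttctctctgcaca

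Both promoters held the AP-1 letters once, 74 bases before the start in Gstp1 and 89 bases before it in Gstp2, each followed by GC, and aligned at 87.5% identity over the bases paired. The AP-1 site was found in 5.2% of 32851 promoters of this length and the longer TGAGTCAGC in 0.414%. The GC box GGGCGG stood once in the Gstp1 promoter and 2 times in that of Gstp2, and in 35.7% of all promoters, while TATAA was in 24.9%. The antioxidant response element, at which NRF2 is known to act, was searched only in the core form TGACNNNGC. This form was in neither the Gstp1 nor the Gstp2 promoter, and in 12.4% of all promoters. The TGAGTCAGC of both has the same letters except G in place of C. The search therefore cannot show whether these promoters hold such an element. Of the 8 members with a promoter entry, Gstm5 was the other with an AP-1 match, on the minus strand 176 bases before its start, and it also held the TGACNNNGC letters. The second of the Gstm7 promoters held TGACNNNGC too. The promoters of Gstm1, Gstt1, Gstk1 and Gsto1 held neither motif. A match describes letters in a window, and binding was not measured.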

How the data were processed

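RNA-seq of 9 hypothalamus libraries, 3 in each of HA, HP and LP, was analysed from the deposited count and FPKM tables. The deposited counts are whole reads per gene that the authors did not normalize, and the deposited FPKM values divide them by gene length and library size, with a ratio to recomputed FPKM of 0.9813 to 1.0111. The submitters' processing notes name the tools HISAT2 (version 2.0.5), featureCounts (version 1.5.0-p3) and DESeq2 (version 1.16.1) and the build mm9. Because 53499 of 54409 shared gene identifiers (98.3%) have the same start and end in GENCODE M21, coordinates are read as GRCm38. Strand use is not given in the sources used here. The labels leave out whether the pups of a group were littermates, and a p-value here speaks only of the spread among these 9 libraries, a spread that could in part be technical. Chi-square per degree of freedom between libraries of a group was 4.727 to 25.832, so none was a repeat of another in its group. Libraries of different groups were not compared in this way.

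Counts were fitted with edgeR 4.0.16 in R 4.3.3 (filterByExpr, TMM, quasi-likelihood F test, two-sided, Benjamini-Hochberg over 17546 genes, threshold 0.05), all 9 libraries together. The SE is the size of the log2 fold change divided by the square root of F. The dispersion common to all genes was 0.01987, which is a coefficient of variation of 14.09%, and a prior count of 2 was added for log2 CPM. Alternatives included DESeq2 1.42.0 and limma 3.58.1 (voom). Near copies were found with BLAST+ 2.17.0.

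The members, gene lists and marker lists were chosen with earlier results of these data known. Named genes are the 10 members, up to 4 genes of smallest p per pathway list (1 of them is not reported here), and the 6 genes most and 4 least correlated with Gstp1; Gclc, Nfe2l2, Nqo1, Hmox1, Traf5 and Gstm2 were added for their roles or values. As a check of pairing, deviations of same-numbered libraries from their group means correlated at 0.256, 0.144 and 0.486 between HA and LP, 0.082, 0.004 and 0.118 between HA and HP, and 0.137, -0.028 and 0.159 between HP and LP. Only HA with LP met the rule of a correlation over 0.1 in every pair, and the labels name no pairing. The highest value, 0.486, was between the replicates 3 of HA and LP, the libraries with the highest meningeal markers. Libraries of unlike number were not compared, so the check cannot show that the numbers pair HA with LP.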

Additional observations from a re-analysis of the deposited data

How the results depend on the processing

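Counts of called genes moved most. For HP against LP they were 1 with library totals, 53 with no filter, 32 with DESeq2, 4 with a replicate block and 4 with only those groups fitted. For HA against HP they were 5 with no filter and 7 with DESeq2, and for HA against LP 41 with no filter, 25 with DESeq2 and 1 with only those groups. Leaving out 1 library, or LP replicate 3 and HA replicate 3 together, gave 1 to 37 for HP against LP, 1 to 10 for HA against HP and 0 to 23 for HA against LP. Among these the highest count in each comparison came without both LP replicate 3 and HA replicate 3, in which meningeal markers were highest; the cause was not tested.

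Gstp1 kept its direction and its side of the threshold under all 19 alternatives for HA against HP and all 18 for HA against LP; its adjusted p was 0.132 to 0.99 and 0.0685 to 0.913. For HP against LP its log2 fold change was 0.593 to 0.882. The summed pi class in HA against LP passed without LP replicate 3 (0.544, adjusted p = 0.046, edgeR) and without LP replicate 3 and HA replicate 3 (0.554, adjusted p = 0.0264), and with 1 or both of these or any other library left out it lay between 0.251 and 0.554. With the replicate block, Gstp1 gave 0.358 (adjusted p = 0.628, edgeR) in HA against LP, and the block changed no call of a member. Gstp2 had no estimate where a stricter filter or fewer libraries removed it, and DESeq2 gave it no adjusted p. At 1 to 44 counts, depth limits Gstp2 above all.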
